A study of Fragaria vesca with 12 samples.

Results

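WRKY transcription factors are a large family of plant DNA-binding proteins. In the expression table of this strawberry study, 45 of 21927 genes have a description that contains the word WRKY, and these 45 genes are the members described here. The descriptions of 43 are predictions in Fragaria vesca, the diploid woodland strawberry, and 2 are borrowed from the relatives Prunus yedoensis and Rosa chinensis. The samples were fruit taken at 27 days post anthesis (DPA) from wild-type (WT) plants and from the Fvalkbh10b mutant. Each genotype gave 3 biological replicates of input RNA and 3 of RNA pulled down with an antibody against m6A, the methylated adenosine N6-methyladenosine found within mRNA. The labels give no allele for the mutant and do not say whether achenes, the seed-bearing fruits on the strawberry surface, were removed or how many fruits made a sample. ALKBH10B is known in Arabidopsis as a dioxygenase that removes m6A from mRNA.

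WRKY proteins carry a DNA-binding domain named after the amino acids tryptophan, arginine, lysine and tyrosine, followed by a zinc finger, and they bind the W-box element in promoters. In Arabidopsis they are sorted into group I, with a pair of WRKY domains, group II, with a single domain and subgroups a to e, and group III, whose zinc finger differs. The family is known for roles in immunity, salicylic and jasmonic acid responses, leaf senescence, seed and trichome development and secondary walls, and strawberry members have been linked to fruit softening and ripening. Members are called here by gene identifier and by the number in their description, and are ordered by the group that the Arabidopsis factor of that number belongs to. Several genes share a number, and close copies may share reads, so the level of any single copy among them is uncertain.

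The members lay on all 7 chromosomes, with 13 on chromosome 6 and 3 on chromosome 5. The closest pair, FvH4_6g09740 and FvH4_6g09750, both described as WRKY70, were 3204 bases apart. Many members were low in fruit of this stage. Input levels were FPKM, fragments scaled to exon length and to the number of mapped fragments, so levels can be compared between genes. Of the 45 members, 17 had a mean under 1 FPKM over the 6 input libraries, and between 25 and 30 members per library reached 1 FPKM.

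The family as a whole took a similar share of the RNA in both genotypes, while its make-up differed. The 45 members summed to 325.87, 338.43 and 324.65 FPKM in WT and to 362.33, 373.25 and 371.57 FPKM in the mutant, which is 0.0694% to 0.0723% of all FPKM in WT and 0.0711% to 0.0731% in the mutant. A single gene, FvH4_5g15330 (WRKY61), held 23.9% to 25.5% of the sum in WT and 37.8% to 38.8% in the mutant. Without it the sums were 247.06 to 252.18 FPKM in WT and 222.78 to 231.03 FPKM in the mutant, so the order of the genotypes turned. FvH4_6g42870 (WRKY31) was the fourth most abundant member in WT and ranked 21 in the mutant, and FvH4_7g10440 (WRKY12) ranked 23 in WT and 8 in the mutant.

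Read numbers are not in the table, and library depth is thus unknown. The labels give no identifier for the mutated gene; the 1 gene annotated as an m6A dioxygenase, FvH4_2g24110, stood at 28.53 to 31.03 FPKM in WT and at 3.75 to 5.34 in the mutant. Green tissue genes stood far higher in the mutant, with a summed level of 304.78 to 320.84 FPKM over 41 genes in WT and 3354.25 to 3561.80 in the mutant. Of these genes, 6 were at 0 in all WT libraries and 1 in all mutant libraries. Achene and seed genes (35) summed to 707.05 to 721.58 FPKM in WT and 469.65 to 503.46 in the mutant, with 2 at 0 in each genotype. Their 12S storage protein gene FvH4_5g29270 had 196.65, 191.81 and 194.52 FPKM in WT and 0.06, 0 and 0.22 in the mutant. Without this gene the sums were 512.53 to 529.77 and 469.43 to 503.40 FPKM. Of the 22 tested genes of that list 13 were lower and 6 higher, among the latter legumin B-like FvH4_3g19080, at 22.4 ± 1.76 FPKM in WT fruit and 97.4 ± 9.15 in mutant fruit (SD, n = 3). Genes of lignified vascular tissue (48) summed to 123.40 to 140.27 FPKM in WT and 166.48 to 173.74 in the mutant, with 9 and 5 at 0. Of the 20 tested genes of this list 13 were higher and 4 lower, against 48.3% and 19.1% of all tested genes. A cell cycle list of 5 genes, which by its wording also took in a calcyclin-binding protein, summed to 257.16 to 282.54 and 259.41 to 283.86 FPKM. The part of these tissues in the WRKY differences was not tested, and in bulk fruit fewer cells of a type and less RNA per cell cannot be told apart.

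The first comparison asked which WRKY genes differed in input RNA between mutant and WT fruit. As many members rose as fell. The falls past 2-fold on the log2(FPKM + 1) scale were FvH4_6g42870 (WRKY31), FvH4_6g38370 (WRKY71), FvH4_6g02660 (WRKY74), FvH4_4g20230 (WRKY48), FvH4_2g33920 (WRKY7) and FvH4_6g53770 (WRKY75). The rises past 2-fold on that scale were FvH4_7g10440 (WRKY12), FvH4_2g36730 (WRKY17) and FvH4_4g30360 (WRKY57). Other genes of the same numbers did not all do so. Of the 28 members with a mean of at least 1 FPKM, 10 were higher and 10 lower in the mutant at an adjusted p under 0.05 (limma on log2(FPKM + 1), adjusted over all 15571 genes tested). This is 35.7% of the tested members in each direction, against 48.3% higher and 19.1% lower among all genes tested, and 71.4% of members in either direction against 67.5% of all genes. Past 2-fold on that scale, 3 members were higher and 6 lower, against 14.0% and 6.49% of all genes. The median log2 change of the tested members was -0.10, and that of all tested genes was 0.25. With 0.1 added in place of 1, FvH4_7g16150 (1.31), FvH4_3g01700 (-1.27) and FvH4_6g28650 (-1.32) were also past 2-fold on the log2 scale. The share of all genes past 2-fold at that setting is not given.

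In all 20 called members the 3 WT libraries did not overlap the 3 mutant libraries, which also held for 71.4% of all tested genes. The exact two-sided permutation test gave 0.1 for each of these 20, the smallest p that 3 against 3 libraries allow. A filter on the mean favours members that are high in one genotype. Of the tested members, 3 had a mean of at least 1 FPKM in WT alone, namely FvH4_6g53770, FvH4_2g33920 and FvH4_3g01700, and 0 in the mutant alone. When each library was rescaled to one median, 7 members were higher and 15 lower, against 30.8% and 32.2% of all genes, and past 2-fold 1 and 8, against 10.1% and 8.46%. With quantile normalization 8 were higher and 14 lower, against 31.3% and 29.7%, and past 2-fold 1 and 9, against 9.36% and 8.63%. The balance of directions thus differed with the scaling, and 0 called members changed direction.

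**Figure D1:**
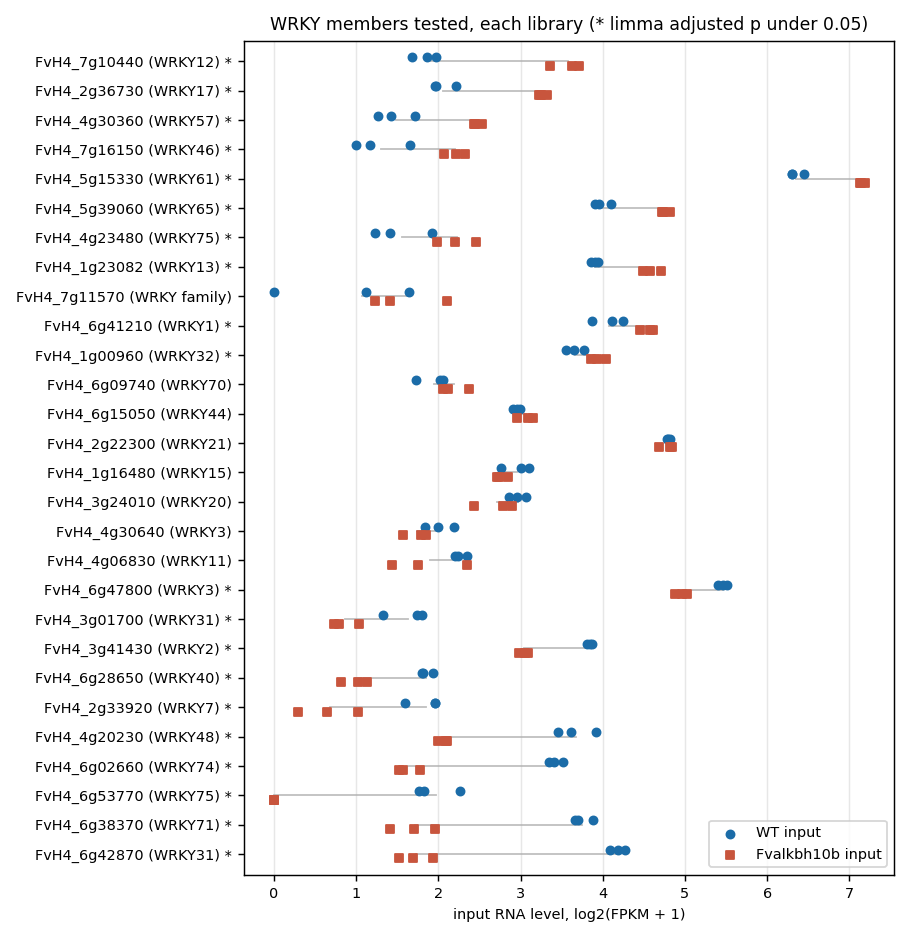
Input RNA of the 28 tested WRKY members in each library, as log2(FPKM + 1), with WT libraries as blue circles, mutant libraries as red squares and a grey line between the genotype means. Members are ordered by their change and a star marks an adjusted p under 0.05; the circles and squares of the 20 starred members do not overlap.

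Group IIc split widely. All 7 tested members numbered in this group were called, 4 higher and 3 lower, and the other 6 of its 13 members were under the minimum mean. Over all tested genes, the scale for this and the later groups, 67.5% were called, 48.3% higher and 19.1% lower. Groups IIa, IIb and IIe, with 1, 3 and 1 tested members, also had all of them called. FvH4_6g38370 (WRKY71; chromosome 6, 30322214 to 30325074, plus strand) had 11.68, 12.01 and 13.76 FPKM in WT and 2.27, 1.67 and 2.90 in the mutant. Every WT library was above every mutant library, and the change on the log2 scale was -2.05 ± 0.14 (SE over 3 replicates in each genotype, adjusted p from limma = 9.06e-07). WRKY71 promotes shoot branching and flowering in Arabidopsis, and a strawberry factor of that number has been linked to ripening. FvH4_4g20230 (WRKY48; chromosome 4, 23570212 to 23572235, minus strand) fell from 11.25, 14.15 and 9.97 FPKM to 3.0, 3.31 and 3.28, a log2 change of -1.60 ± 0.13 (adjusted p = 2.28e-06). WRKY48 is a negative regulator of bacterial defence in Arabidopsis, and a factor of that number has been linked to fruit softening in woodland strawberry. Whether these are the same genes was not examined here.

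The number WRKY75, which in Arabidopsis names a factor of phosphate starvation and leaf senescence, belongs to a pair of genes that went opposite ways. FvH4_6g53770 (chromosome 6, 39362619 to 39364707, minus strand) had 3.80, 2.40 and 2.55 FPKM in WT and was listed at 0 in all 3 mutant libraries. It was called lower (limma adjusted p = 3.70e-06). The size of its change depends on the pseudocount and is not given, and it was the only member at 0 throughout one genotype and over 1 FPKM in the other. FvH4_4g23480 (chromosome 4, 25942612 to 25944696, plus strand) had 2.80, 1.66 and 1.35 FPKM in WT and 2.95, 3.59 and 4.48 in the mutant. Its lowest mutant library lay just above the highest WT library. It rose by 0.69 ± 0.20 on the log2 scale (adjusted p = 0.0109), and the call was lost after rescaling to one median (adjusted p = 0.0554) and after quantile normalization (0.207).

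The other tested IIc members rose. FvH4_7g10440 (WRKY12; chromosome 7, 9872264 to 9875279, plus strand) had 2.21, 2.65 and 2.93 FPKM in WT and 9.26, 12.15 and 11.31 in the mutant. This was the largest rise among the tested members on the log2(FPKM + 1) scale, at 1.72 ± 0.13 (adjusted p = 1.34e-06). FvH4_1g23082 (WRKY13; chromosome 1, 14958489 to 14962857, plus strand) went from 13.51, 14.02 and 14.40 FPKM to 21.46, 25.13 and 22.82, a log2 change of 0.69 ± 0.07 (adjusted p = 2.15e-05). In Arabidopsis WRKY12 holds back secondary walls in pith cells, while WRKY13 promotes the fibre tissue of stems. FvH4_4g30360 (WRKY57; chromosome 4, 30030743 to 30034393, minus strand), whose Arabidopsis namesake acts in drought tolerance, had 1.69, 2.28 and 1.40 FPKM in WT and 4.80, 4.44 and 4.41 in the mutant. The log2 change was 1.0 ± 0.14 (adjusted p = 1.41e-04). It was under 2-fold after rescaling to one median, at 0.80, and with quantile normalization, at 0.63.

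Group IIb held the most abundant member and one of the falls past 2-fold. FvH4_6g42870 (WRKY31; chromosome 6, 33297699 to 33301391, plus strand) had 16.06, 18.32 and 17.20 FPKM in WT and 1.87, 2.82 and 2.23 in the mutant. The mean was 7.45-fold lower in the mutant, and the log2 change was -2.47 ± 0.12 (adjusted p = 5.94e-08). A further gene numbered WRKY31, FvH4_3g01700, had 2.33, 2.48 and 1.51 FPKM in WT and 0.73, 0.66 and 1.05 in the mutant and also fell, by 0.77 ± 0.17 on the log2 scale (adjusted p = 0.00265). FvH4_5g15330 (described as WRKY61 from Prunus yedoensis; chromosome 5, 8684539 to 8687346, minus strand) had 78.11, 86.25 and 77.59 FPKM in WT and 139.55, 144.83 and 140.54 in the mutant. It rose by 0.81 ± 0.05 on the log2 scale (adjusted p = 3.16e-07). Its mean over the 6 libraries was higher than that of 97.2% of all genes, and the next member, FvH4_6g47800, reached 36.6 FPKM.

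Group IId, whose Arabidopsis members bind calmodulin, also split. All 6 members were tested, and these are the 6 members annotated with calmodulin binding in the table; 2 fell, 1 rose and 3 were not called. FvH4_6g02660 (WRKY74; chromosome 6, 1520191 to 1522333, minus strand) had 9.16, 10.49 and 9.64 FPKM in WT and 2.42, 1.86 and 1.98 in the mutant, a log2 change of -1.80 ± 0.11 (adjusted p = 4.06e-07). FvH4_2g33920 (WRKY7) had 2.88, 2.02 and 2.89 FPKM in WT and 0.23, 0.57 and 1.03 in the mutant, a log2 change of -1.18 ± 0.20 (adjusted p = 5.32e-04). FvH4_2g36730 (WRKY17; chromosome 2, 26838528 to 26840942, minus strand) rose from 3.63, 2.90 and 2.91 FPKM to 8.48, 8.96 and 8.35, with a log2 change of 1.21 ± 0.11 (adjusted p = 5.43e-06). This rise was just under 2-fold after rescaling to one median, at 0.98, and with quantile normalization, at 0.91. WRKY7, WRKY11 and WRKY17 hold back basal resistance to bacteria in Arabidopsis.

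FvH4_4g06830 (WRKY11) had 3.61, 3.74 and 4.08 FPKM in WT and 1.71, 2.37 and 4.09 in the mutant. One mutant library lay just above the highest WT library while the rest lay below all WT libraries, and the gene did not pass (adjusted p = 0.0972). It passed as lower after rescaling to one median (adjusted p = 0.0175) and without Fvalkbh10b input replicate 3, with a log2 change of -0.67. FvH4_2g22300 (WRKY21), the third most abundant member, had a mean of 26.8 ± 0.346 FPKM in WT fruit and 26.6 ± 1.59 in mutant fruit (SD, n = 3). Its log2 change of -0.01 ± 0.06 did not pass (adjusted p = 0.880), but it was called lower after rescaling to one median, at -0.28 (adjusted p = 0.00230), and not with quantile normalization, at -0.15 (0.0644). FvH4_1g16480 (WRKY15), with 6.78 ± 0.905 FPKM in WT fruit and 5.82 ± 0.346 in mutant fruit, did not pass either (adjusted p = 0.171) and was also called lower after rescaling.

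Changes of the tested group I members were under 2-fold on the log2(FPKM + 1) scale before any rescaling. Of 10 members 7 were tested, 2 rose, 2 fell and 3 were not called. FvH4_6g47800 (WRKY3; chromosome 6, 36152719 to 36156467, plus strand) had 43.18, 41.34 and 44.66 FPKM in WT and 28.44, 31.56 and 30.15 in the mutant. It fell by 0.51 ± 0.06 on the log2 scale (adjusted p = 3.48e-05). In Arabidopsis WRKY3 takes part in resistance to pathogens that feed on dead tissue. FvH4_3g41430 (WRKY2; chromosome 3, 34792747 to 34797971, plus strand), whose Arabidopsis namesake acts in pollen and in the polarity of the zygote, went from 13.67, 13.05 and 13.41 FPKM to 6.90, 7.29 and 7.49. Its log2 change was -0.81 ± 0.08 (adjusted p = 9.46e-06), and -1.06 after rescaling to one median.

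Both group I members that rose lost their call under some scaling. FvH4_6g41210 (WRKY1) had 16.28, 17.93 and 13.57 FPKM in WT and 23.48, 20.94 and 22.77 in the mutant, a log2 change of 0.47 ± 0.10 (adjusted p = 0.00177; 0.0909 after rescaling to one median and 0.0197 with quantile normalization). FvH4_1g00960 (WRKY32) had 10.77, 12.67 and 11.59 FPKM in WT and 15.43, 14.28 and 13.47 in the mutant, a log2 change of 0.28 ± 0.09 (adjusted p = 0.0149). That change was close to the median of all genes, the call was lost after rescaling (adjusted p = 0.871), and it was also lost without WT input replicate 1 or without Fvalkbh10b input replicate 1. FvH4_6g15050 (WRKY44), the number of TTG2, which in Arabidopsis shapes trichomes and the seed coat, had 6.95, 6.79 and 6.51 FPKM in WT and 7.91, 7.49 and 6.75 in the mutant. The libraries overlapped and the gene did not pass (adjusted p = 0.314). FvH4_3g24010 (WRKY20) and a further WRKY3 gene, FvH4_4g30640, had adjusted p of 0.110 and 0.117 and log2 changes of -0.26 and -0.27, and both were called lower after rescaling.

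The single group IIa member, FvH4_6g28650 (WRKY40), had 2.48, 2.52 and 2.84 FPKM in WT and 1.04, 1.20 and 0.76 in the mutant. It fell by 0.86 ± 0.14 on the log2 scale (adjusted p = 3.86e-04). WRKY40 represses immune and abscisic acid response genes in Arabidopsis. In group IIe 1 of 4 members was tested, FvH4_5g39060 (WRKY65; chromosome 5, 28836497 to 28838561, minus strand), and it rose from 14.05, 14.52 and 16.19 FPKM to 25.35, 27.29 and 25.58. Its log2 change was 0.77 ± 0.07 (adjusted p = 7.41e-06).

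In group III, which in Arabidopsis includes central regulators of salicylic acid responses and senescence, 2 of 5 members were tested. FvH4_7g16150 (WRKY46), whose Arabidopsis namesake acts in drought and defence responses, had 1.24, 0.99 and 2.16 FPKM in WT and 3.99, 3.63 and 3.20 in the mutant. It rose by 0.93 ± 0.18 on the log2 scale (adjusted p = 0.00121). FvH4_6g09740 (WRKY70), numbered like the Arabidopsis factor that balances salicylic against jasmonic acid, had 3.07, 3.15 and 2.32 FPKM in WT and 3.15, 3.33 and 4.17 in the mutant. These values met at 3.15, and the gene did not pass (adjusted p = 0.154). FvH4_7g11570, described only as a WRKY family factor from Rosa chinensis, had the largest SE of the tested members on the log2(FPKM + 1) scale, 0.38, with 1.18, 0 and 2.12 FPKM in WT and 1.35, 1.67 and 3.29 in the mutant (adjusted p = 0.149).

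**Figure D2:**
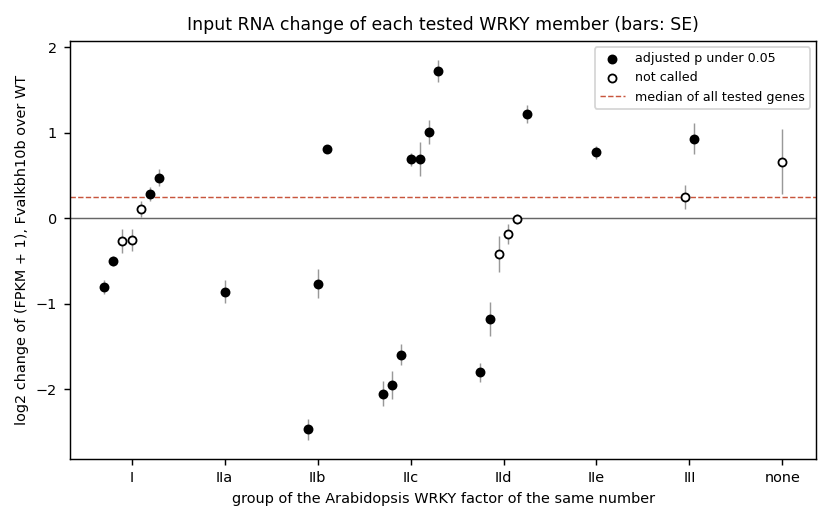
Log2 change of (FPKM + 1) in input RNA, mutant over WT, for each tested WRKY member, in columns by the group of the Arabidopsis factor of the same number; bars are SE, filled points passed an adjusted p of 0.05 and the dashed line is the median of all tested genes, 0.25. Group IIc spans both the rises and the falls with every point filled, and the points of groups IIa, IIb and IIe are also all filled. The 7 group I points lie between -0.81 and 0.47.

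The 17 members under the minimum mean reached at most 1.44 FPKM in any library. They include the numbers of several well-known Arabidopsis immunity and senescence factors. FvH4_6g10510 (WRKY33, of camalexin synthesis and resistance to grey mould in Arabidopsis) had 0.48, 0.23 and 0.12 FPKM in WT and 0.11, 0.16 and 0.25 in the mutant, and FvH4_7g15350 (WRKY22, of immune signalling) had 0.22, 0.27 and 0.18 in WT and 0.33, 0.80 and 0.36 in the mutant. FvH4_5g04370 (WRKY53, a promoter of leaf senescence in Arabidopsis) had 1.12, 0.79 and 0.97 FPKM in WT and 0.31, 0.13 and 0.48 in the mutant. FvH4_3g06200, a further WRKY71 gene, had 0.87, 1.44 and 1.03 FPKM in WT and 0.23, 0.46 and 0.37 in the mutant. FvH4_5g04370 and FvH4_3g06200 had every WT library above every mutant library. In all, 7 of these 17 members had genotypes that did not overlap, a trait of 71.4% of all tested genes. Of the 7, FvH4_7g15350, FvH4_3g39850 (WRKY25) and FvH4_6g00500 (WRKY2) were higher in the mutant and the rest lower. The share among all genes under the minimum mean is not given.

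FvH4_2g31400 (WRKY50) and FvH4_1g22820 (WRKY51), numbered like a pair of Arabidopsis repressors of jasmonic acid responses, differed in how clear they were. The first had 0.43, 0.47 and 0.26 FPKM in WT and was listed at 0 in the 3 mutant libraries. The second had 1.08, 0.82 and 0.51 in WT and 0.67, 0.28 and 0 in the mutant, so its groups overlapped. FvH4_6g09750 and FvH4_7g26030, both numbered WRKY70, and FvH4_1g26980 (WRKY23) stayed at or below 0.95 FPKM in every library with overlapping groups. When all 45 members were fitted without the filter, 11 were higher and 14 lower, against 39.3% and 15.0% of the 21902 genes in that fit. The 5 gained were FvH4_2g31400, FvH4_3g06200, FvH4_5g04370 and FvH4_3g07360 (WRKY65), all lower, and FvH4_6g00500 (WRKY2), which was higher.

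Genes that share a number did not always move together. The WRKY31 pair both fell, while the WRKY75 pair split as given above. Of the WRKY65 genes, FvH4_5g39060 rose, and FvH4_3g07360 had 0.88, 0.55 and 0.72 FPKM in WT and 0.40, 0.37 and 0.41 in the mutant. Of the WRKY2 genes, FvH4_3g41430 fell, and FvH4_6g00500 had 0.07, 0 and 0.18 FPKM in WT and 0.24, 0.65 and 0.30 in the mutant.

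Members were also grouped by annotated function. Of 13 members annotated with a response to chitin, 8 were tested, 4 fell and 1 rose; this is 62.5% called in either direction, near the 67.5% of all genes. Those that fell were FvH4_6g42870, FvH4_3g01700, FvH4_4g20230 and FvH4_6g28650, and the one that rose was FvH4_2g36730. Of 10 members annotated with defence against bacteria, 5 were tested, 2 fell and 1 rose, so 60% were called. Of 6 annotated with a response to salicylic acid, 4 were tested and 2 fell, so 50% were called. Both shares lay under the 67.5% of all tested genes, of which 19.1% fell and 48.3% rose. These small sets share members, and whether their directions differ from those of all genes was not tested. The median log2 change of the 8 tested chitin members was -0.59.

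Other transcription factor families gave a scale for these counts. The share of tested members changed by at least 2-fold was 32.1% for WRKY (9 of 28), 30% for MYB, 38.1% for bHLH, 33.3% for NAC domain and 51.4% for ethylene-responsive factors, against 20.4% of all tested genes. These shares are descriptions, with no test between families. Of the MYB genes 20 of 40 were higher and 12 lower, of bHLH 31 of 42 and 5, of NAC domain 5 of 21 and 9, and of ethylene-responsive factors 18 of 35 and 13. Among all tested genes 48.3% were higher and 19.1% lower.

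Pathways that work with WRKY factors were read from word lists. For scale, 48.3% of all tested genes were higher and 19.1% lower, with a median log2 change of 0.25. Mitogen-activated protein kinase cascades, which relay immune signals to WRKY factors, had 16 genes higher and 9 lower of 32 tested, with a median log2 change of 0.23. Kinase kinase 3 (FvH4_6g51290) rose from 6.34 ± 0.747 to 24.4 ± 3.84 FPKM (SD, n = 3), while kinase kinase kinase A (FvH4_6g42900) fell from 9.85 ± 0.356 to 0.383 ± 0.170. VQ motif proteins, which bind WRKY factors, had 1 of 3 genes tested, sigma factor binding protein 2 (FvH4_6g25410), which rose from 2.48 ± 0.248 to 5.59 ± 0.986 FPKM. Salicylic acid genes had 3 higher and 2 lower of 11 tested. Both leading rises there are SUPPRESSOR OF npr1-1-like genes, taken in by their wording. The 2 falls were picked by wording as well. NPR5-like (FvH4_6g25090) fell from 7.64 ± 0.578 to 0.427 ± 0.296 FPKM. NPR3-like (FvH4_3g11950) fell less, with a log2 change of -0.39 ± 0.11 (SE, limma adjusted p = 0.0108). Whether NPR5-like or NPR3-like acts in salicylic acid responses of strawberry was not examined. A list worded for flagellin and chitin receptors, which also took in somatic embryogenesis receptor kinases, had 2 higher and 1 lower of 6 tested. LYK2 (FvH4_6g53170) rose, with 7.81 ± 0.828 FPKM in WT fruit and 95.5 ± 1.10 in mutant fruit. Somatic embryogenesis receptor kinase 1-like (FvH4_4g23093) also rose, and somatic embryogenesis receptor kinase 2 (FvH4_5g00660) fell. No called gene of this list is described as a flagellin or chitin receptor. Pathogenesis-related proteins, chitinases and thaumatins had 9 higher and 7 lower of 22 tested, with a median of 0.09; of the thaumatin-like 1b genes, FvH4_6g24670 rose from 4.81 ± 0.181 to 81.0 ± 3.87 FPKM and FvH4_6g05880 fell from 34.0 ± 0.416 to 0.0667 ± 0.115. Of 5 genes with senescence in their description 2 were tested and neither passed, with log2 changes of 0.04 and 0.32.

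The second comparison asked where WRKY transcripts carried m6A in each genotype. Peaks are regions enriched in the precipitated RNA, and the authors deposited 1 list per genotype. How the replicates entered a list is not stated. The peaks carry no replicate error, and no test was made. Most expressed WRKY members had a peak in both genotypes. The WT list held 48 peaks in 27 members and the mutant list 56 peaks in 29 members. In all, 26 members had a peak in both lists, 1 in WT alone, 3 in the mutant alone and 15 in neither. Among tested members 25 of 28, or 89.3%, had a peak in each list, against 82.2% of all tested genes in WT and 83.2% in the mutant; over the whole table the shares of genes were 63.1% and 66.2%.

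Members with more RNA had peaks more often. Of the 17 members under 1 FPKM, 2 had a WT peak and 4 a mutant peak, against 16.1% and 24.7% of all genes at that level. Of the 11 members at 1 to under 5 FPKM, 9 had a WT peak and 8 a mutant peak, against 72.2% and 76.6% of genes. Of the 13 members at 5 to under 20 FPKM, 12 had a WT peak and 13 a mutant peak, against 87.7% and 86.6% of genes. All 4 members at 20 FPKM and over had peaks in both lists, against 86.2% of genes in WT and 85.8% in the mutant. Expressed members with no peak in either list were FvH4_6g53770 (WRKY75), which was listed at 0 in the mutant, and FvH4_7g11570, whose gene spans 508 bases.

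Most WRKY peaks lay in the 3' untranslated region (UTR), as they did for all genes. In WT the 3' UTR held 27 of 48 peaks (56.2%), coding exons held 13 (27.1%) and the 5' UTR held 8 (16.7%), against 54.5%, 29.9% and 15.6% of all WT peaks. In the mutant the numbers were 31 (55.4%), 18 (32.1%) and 7 (12.5%), against 54.7%, 30.1% and 15.2%. The 3' UTR peaks were also the most enriched. Their median log2 ratio of precipitated RNA over input, the authors' own value, was 2.37 in the WT list and 2.51 in the mutant list, below the 3.01 and 3.06 of all 3' UTR peaks. Coding exon peaks of members had medians of 1.01 and 1.24.

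The strongest WRKY peak in both lists belonged to WRKY13. It ran from 14960193 to 14962825 on chromosome 1 in WT, with a log2 enrichment of 4.33, and from 14960193 to 14962850 in the mutant, with 4.09. FvH4_6g47800 (WRKY3) had 4 peaks in each list, in the 5' UTR, a coding exon and at a pair of places in the 3' UTR. FvH4_4g30360 (WRKY57) differed in outline, with 3 peaks in WT, of which the widest ran over 2664 bases, and 5 narrower peaks in the mutant, 100 to 300 bases wide. The authors gave each peak 1 class, also where it spans several: the single mutant peak of FvH4_4g20230 (WRKY48), 1127 bases wide and classed as 5' UTR, overlapped both WT peaks of that gene, a coding exon peak of 627 bases and a 5' UTR peak of 350 bases. FvH4_1g16480 (WRKY15) had its single peak in the 5' UTR in both lists, and FvH4_6g28650 (WRKY40) and FvH4_7g16150 (WRKY46) had peaks in coding exons alone.

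**Figure D3:**
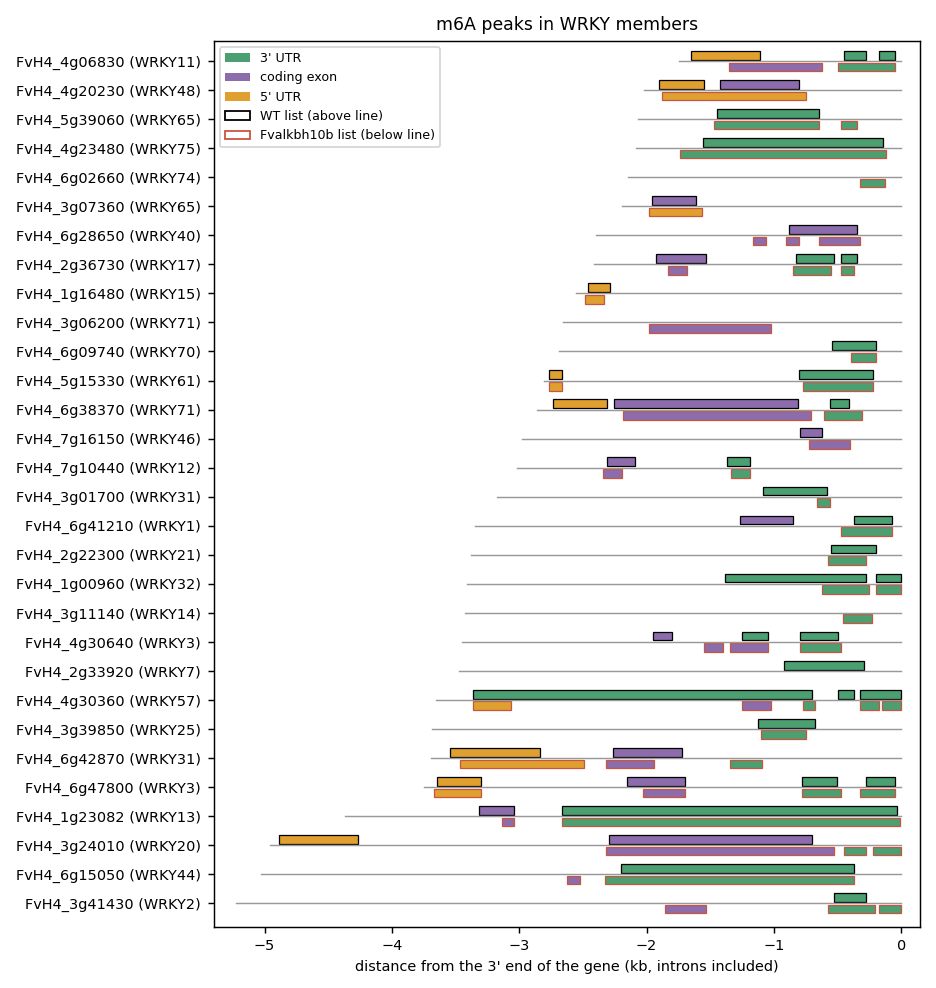
Position of the authors' m6A peaks in the 30 members that have any, as distance in kb from the 3' end of the gene with introns included; grey lines are genes, boxes above the line are WT peaks, boxes below are mutant peaks, and the fill gives the authors' class. Most boxes above a line face a box below it; FvH4_2g33920 has a box above alone, and FvH4_6g02660, FvH4_3g06200 and FvH4_3g11140 have boxes below alone.

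Most WRKY peaks were shared. Of the WT peaks 42 of 48 (87.5%) overlapped a mutant peak by at least 1 base on the same strand, and 44 of 56 mutant peaks (78.6%) overlapped a WT peak, against 82.3% and 79.3% of all peaks. The gene with a peak in WT alone was FvH4_2g33920 (WRKY7), with a 3' UTR peak of log2 enrichment 1.83 at 25311865 to 25312494, and its RNA was lower in the mutant. FvH4_6g02660 (WRKY74) had a peak in the mutant alone, in the 3' UTR at 1520316 to 1520515 with an enrichment of 1.66, and its RNA was also lower in the mutant. FvH4_3g06200 (WRKY71) and FvH4_3g11140 (WRKY14), the other members with a mutant peak alone, were under 1 FPKM on average.

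Within shared genes, some peaks appeared in a single list. FvH4_3g24010 (WRKY20) had a 5' UTR peak in WT with no mutant counterpart (17076387 to 17077002, log2 enrichment 1.95), and a pair of 3' UTR peaks in the mutant with no WT counterpart (17080821 to 17080995 and 17081046 to 17081270, enrichments 2.97 and 2.41). FvH4_3g41430 (WRKY2) gained a peak in the last part of its 3' UTR in the mutant list (34797792 to 34797966, 2.83) and one in a coding exon (1.12). FvH4_6g38370 (WRKY71) had a 5' UTR peak in the WT list alone (30322339 to 30322763, 1.12), and FvH4_6g42870 (WRKY31) a 3' UTR peak in the mutant list alone (33300045 to 33300294, 1.43). Whether such a peak is absent or only under the authors' threshold in the other genotype cannot be read from the lists.

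The third comparison asked which WRKY sites differed in m6A enrichment between the genotypes. In the authors' deposited table of differential peaks, 21 peaks in 17 members were listed and 16 peaks in 13 members had an adjusted p under 0.05. Of these 16, 12 in 10 members were higher in the mutant and 4 in 3 members lower. Among the 28 tested members, 9 (32.1%) had such a peak, 6 with a higher and 3 with a lower one, against 32.4%, 22.9% and 10.8% of all tested genes. Over all genes, 68.9% of the differential peaks in that table were higher. The enrichment is a ratio to the same input libraries that gave the RNA levels. The changes of m6A and of RNA are thus not independent, since the input is also the denominator of the enrichment. Their values are given side by side, and no relation between their signs was tested.

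The 6 tested members with a higher peak were WRKY2, WRKY48, WRKY3, WRKY11, WRKY20 and WRKY65. FvH4_3g41430 (WRKY2) had a 3' UTR peak (34797442 to 34797716) with a log2 change of 0.82 in the authors' deposited table, beside an RNA change of -0.81. In the authors' deposited table FvH4_4g20230 (WRKY48) had a coding exon peak at 0.60, with an adjusted p of 0.04, beside an RNA change of -1.60. FvH4_6g47800 (WRKY3) had a 5' UTR peak at 0.66 and a 3' UTR peak at 0.26 in the authors' deposited table beside an RNA change of -0.51. FvH4_4g06830 (WRKY11) had a 3' UTR peak at 1.35 and FvH4_3g24010 (WRKY20) a coding exon peak at 0.58, again in the authors' deposited table, and the RNA of neither passed the test.

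FvH4_5g39060 (WRKY65) had 3' UTR peaks at 0.92 and 0.16 in the authors' deposited table, beside an RNA change of 0.77.

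The 4 lower peaks were in WRKY57, WRKY13 and WRKY61. FvH4_4g30360 (WRKY57) had a 3' UTR peak at -1.58 (30031418 to 30031567) and a coding exon peak at -0.60 in the authors' deposited table, both with an adjusted p of 0.01, beside an RNA change of 1.0. In the authors' deposited table the 3' UTR peak of WRKY13 described above changed by -0.27, beside an RNA change of 0.69, and that of FvH4_5g15330 (WRKY61) by -0.16, beside 0.81. Both have an adjusted p listed as 0 there.

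The 5 listed peaks that did not pass had adjusted p of 0.05 to 0.09 in the authors' deposited table and lay in WRKY48, WRKY74, WRKY21, WRKY44 and FvH4_6g38370 (WRKY71). The last was at -0.74, beside an RNA change of -2.05, and the WRKY74 peak was at 0.69, beside -1.80. The WRKY48 peak, in the 5' UTR, was listed at 0.05, a rounded value that may lie on either side of the threshold.

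The largest m6A changes, 5.49 and 3.31, came from members with hardly any input RNA. FvH4_3g11140 (WRKY14) had a 3' UTR peak with a log2 change of 5.49 in the authors' deposited table, while its input was 0.13, 0 and 0.08 FPKM in WT and 0.35, 0 and 0.46 in the mutant. FvH4_1g22820 (WRKY51) had a coding exon peak with a change of 3.31, although neither peak list holds a peak for this gene. FvH4_3g07360 (WRKY65) and FvH4_3g06200 (WRKY71) had peaks at 1.57 and 1.18 in the authors' deposited table, with mean inputs of 0.555 and 0.733 FPKM. At such levels the denominator of the enrichment is near 0, and the error of these ratios is not in the table.

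**Figure D4:**
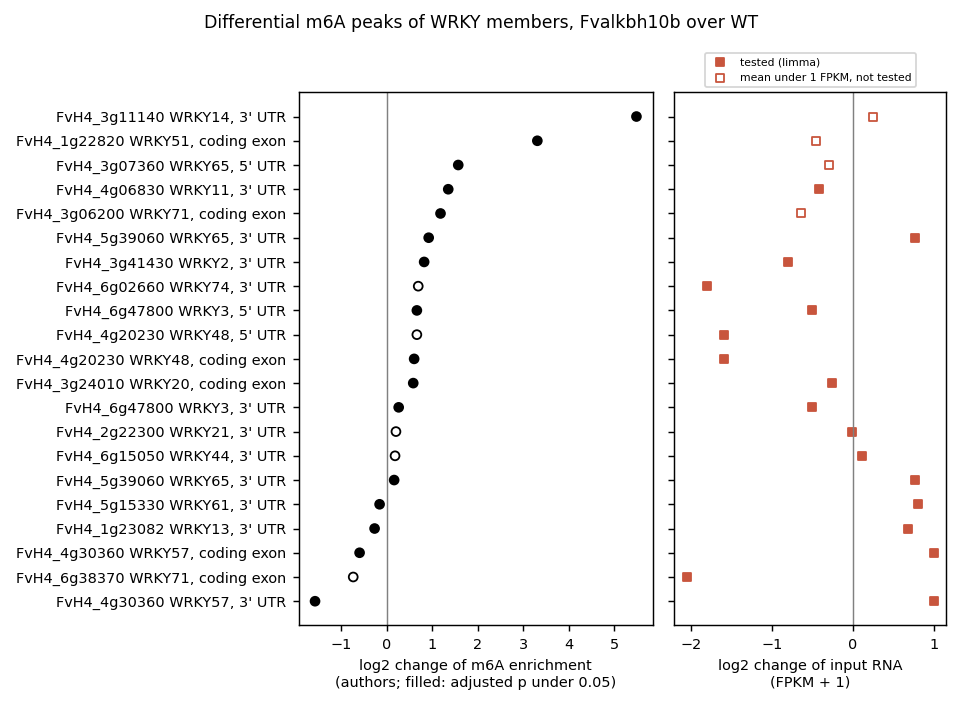
Left, log2 change of m6A enrichment (mutant over WT) of the 21 differential peaks listed by the authors for WRKY members, filled where their adjusted p is under 0.05; right, log2 change of input (FPKM + 1) of the same gene, open where the gene's mean is under 1 FPKM. The upper extremes, 5.49 and 3.31, belong to genes with open squares, and the 4 filled points below 0 on the left belong to WRKY57, WRKY13 and WRKY61.

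The authors' deposited table of expression marks 15 members as significant, 5 higher and 10 lower, against 23.5% of all genes. Of these 15, 9 are the members past 2-fold in limma, 3 were called in limma with a smaller change on the log2(FPKM + 1) scale (FvH4_3g01700, FvH4_6g28650 and FvH4_7g16150), and 3 were under the minimum mean (FvH4_3g06200, FvH4_5g04370 and FvH4_6g00500). The authors' deposited table gives a log2 change of -2.90 for FvH4_6g42870 and of 2.07 for FvH4_7g10440.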

How the data were processed

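Fruit of WT and Fvalkbh10b plants at 27 DPA gave 12 samples in 4 groups of 3. Per the labels' protocols, fragmented mRNA was split into an input and a part pulled down with an anti-m6A antibody, and both were sequenced. FastQC, HISAT2 and StringTie are the tools listed in the submitters' processing notes. The build, annotation, peak caller and tests are not stated in the labels or files. The authors computed and deposited the FPKM, log2 fold changes and p-values, per the file headers. Peak values are rounded to 2 decimals, so an adjusted p of 0 is one that rounds to 0. Deposited peak starts count from 0 and were raised by 1. Sequences were not analysed here, for want of a matching genome. All columns of per-sample values were mapped.

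Members and lists were chosen with earlier results of these data known. The test was limma 3.58.1 (R 4.3.3) on log2(FPKM + 1) for genes averaging at least 1 FPKM over the 6 input libraries. The model held genotype alone, used a trend of variance with level, and p-values were adjusted by Benjamini-Hochberg, with a threshold of 0.05. Adding 1 makes fold changes of low genes too small. The fit was tested on simulated data. By rule, full values go to members past 2-fold, the 6 most abundant, those with differential peaks, those with no peak or a peak in 1 list, those numbered like well-known Arabidopsis factors, and per list the smallest adjusted p in each direction. Other members, same-number pairs and annotation terms were added after values were seen, and Arabidopsis groups come from a hand-written table of numbers. Alternatives changed the pseudocount, filter, scaling, trend, replicate block, libraries, peak thresholds and overlap.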

Additional observations from a re-analysis of the deposited data

How the results depend on the processing

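No called WRKY member changed direction under the alternatives run. The counts of 10 higher and 10 lower members were 10 and 10 with a pseudocount of 0.1 or without the trend. They were 7 and 6 at a mean of at least 5 FPKM, where 17 members were tested. Leaving out each library in turn gave 9 to 11 higher and 10 to 11 lower. With the replicate block 11 were higher and 10 lower. The replicate numbers are not said to pair libraries, and same-numbered libraries showed correlations of their deviations of -0.031 to 0.035. Of 353 values of single members under the alternatives, 330 kept their direction and side of the threshold, 12 passed newly, 7 no longer passed and 4 changed sign. Those 4 had not passed: FvH4_6g15050 went to -0.14 after rescaling and -0.17 with quantile normalization, FvH4_6g09740 to -0.12 with quantile normalization, and FvH4_2g22300 to 0.037 without Fvalkbh10b input replicate 2, in a range of -0.041 to 0.037 when each library was left out. The cause was not tested. At the authors' adjusted p under 0.01, 7 higher and 2 lower differential peaks were left, all listed at 0. Peaks listed at 0.01 were not counted, though they may lie under it before rounding. Peak counts at a log2 enrichment of at least 1 or with a larger overlap stayed close to the main counts, and 44 of the 45 members carry a number. Depth is unknown, so members under 1 FPKM are described only.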

Other observations

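The peak lists hold a further WRKY gene that has no row in the expression table and is therefore not a member. FvH4_6g49140, described as WRKY72, had a coding exon peak in WT (chromosome 6, 36880457 to 36881182, minus strand, the authors' log2 enrichment 3.97) and in the mutant (36880407 to 36880956, 3.96), and it had no differential peak. Its enrichment was close to the 4.33 and 4.09 of the strongest WRKY peak. The WRKY72 gene that is a member, FvH4_4g31790, was at 0.02, 0.03 and 0 FPKM in WT and at 0 in the 3 mutant libraries.

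FvH4_6g42870 (WRKY31), a member that fell past 2-fold, lies near another gene that fell past 2-fold, seen after the values were known. Among all tested genes 6.49% fell past 2-fold, and the neighbours of other members are not given. FvH4_6g42900, the mitogen-activated protein kinase kinase kinase A gene, starts 14161 bases after the end of FvH4_6g42870 (WRKY31) on the same strand of chromosome 6. It had 9.75, 9.56 and 10.25 FPKM in WT and 0.45, 0.19 and 0.51 in the mutant, a log2 change of -2.98 ± 0.13 (limma adjusted p = 2.68e-08). The gene between them in the table, the aspartic proteinase gene FvH4_6g42880, starts 404 bases after WRKY31 and had 193.31, 194.86 and 191.94 FPKM in WT and 211.69, 209.66 and 201.12 in the mutant, a log2 change of 0.10 ± 0.04 (adjusted p = 0.0301).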
